A study of Sus scrofa with 70 samples.

Results

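The lipocalin genes of the boar reproductive tract were examined here together with PTGDS, the lipocalin that makes prostaglandin D2. The members were all genes whose symbol in the deposited annotation is LCN followed by a digit, plus PTGDS. The symbols gave 6 genes, LCN2, LCN6, LCN8, LCN10, LCN15 and PTGDS. LCN5 carries no symbol in that annotation. It was taken as the gene ENSSSCG00000005834, which covers 100% of the RefSeq gene LCN5. The 7 members are among 35552 genes with a value above 0 in the RNA-seq table, and all 7 passed the filter of at least 1 TPM in at least 3 of the 30 libraries that left 19796 genes for testing.

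The organs were the epididymis, the testis and the accessory glands, which are the bulbourethral, prostate and vesicular glands, of boars aged 12 months. The boars were of 2 breeds, the Banna mini-pig inbred line (BMI) and the Diannan small-ear pig (DSE), with no treatment. Each breed and gland has 3 RNA-seq libraries and 1 PacBio Iso-seq library, which holds full-length reads of single transcripts. Libraries are named here by breed and replicate number, such as BMI 2. The labels do not say which segment of the epididymis was taken, nor whether replicates came from different boars, so p-values measure the spread between these libraries. RNA-seq levels are TPM, transcript abundances scaled for length and to a total of 1000000 in each library, summed over the transcripts of a gene. Full-length reads are given as counts and as RPM, which are reads scaled to 1000000 full-length reads kept in the deposited isoform table. The deposited TPM carry no read counts, so no counting interval can be given for them.

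Lipocalins are small secreted proteins with a barrel-shaped pocket that carries hydrophobic molecules such as retinoids, steroids and odorants. Several of them form a cluster of neighbouring genes that is used mainly in the epididymis, where the epithelium secretes them into the fluid in which sperm mature. Their levels in the epididymis are known to differ strongly between its initial segment, caput, corpus and cauda, and many depend on androgen or on fluid from the testis.

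In the susScr11 (Sscrofa11.1) annotation, LCN2 (ENSSSCG00000005638) lies at chr1:268609887-268614644 on the plus strand, and the other 6 members lie on the unplaced scaffold AEMK02000682.1. LCN15 (ENSSSCG00000038233, 1027318 to 1029733), LCN8 (ENSSSCG00000021963, 1032149 to 1037992), LCN5 (1038521 to 1041469), LCN6 (ENSSSCG00000005835, 1044258 to 1049195) and LCN10 (ENSSSCG00000005836, 1050220 to 1063962) follow each other on the plus strand. The gaps between these neighbours are 2415, 528, 2788 and 1024 bp in that order. PTGDS (ENSSSCG00000040080, 887918 to 891229) is on the minus strand of the scaffold, 136088 bp before LCN15. The gene with the symbol LCN15 covers only 29.9% of the RefSeq gene LCN15, and the gene with the symbol LCN8 overlaps no RefSeq lipocalin other than 3.8% of that same gene, so the names of both rest on the deposited annotation. The RefSeq genes LCN12 and LCN9, which are also lipocalins but have no symbol in the deposited annotation, lie on the same scaffold and are given below for comparison.

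**Figure D1:**
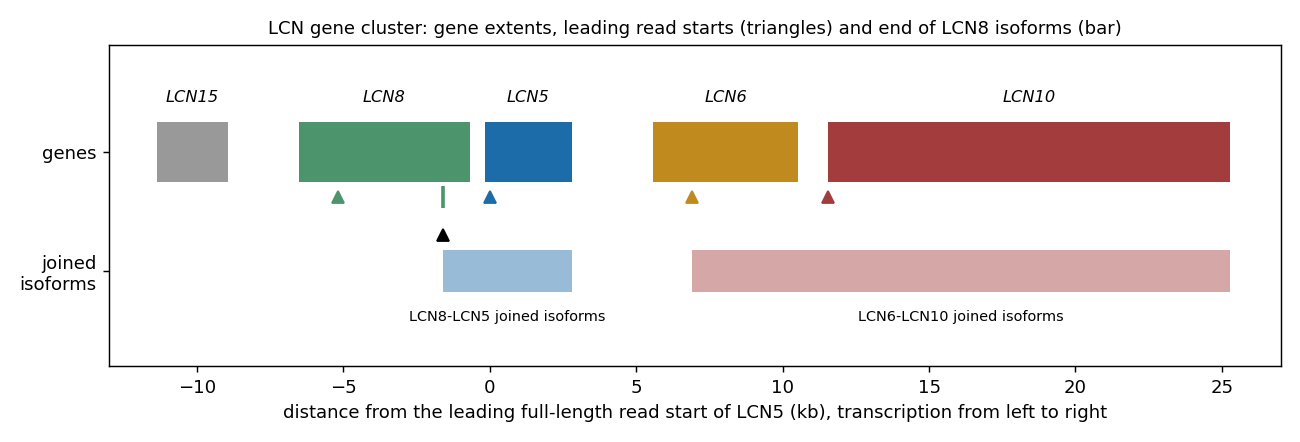
Map of the lipocalin cluster to scale, with distance in kb from the isoform start of LCN5 with most full-length reads on the x axis. Genes are boxes, leading isoform starts are triangles and the end of the LCN8 isoforms is a bar. LCN15, LCN8, LCN5, LCN6 and LCN10 lie head to tail on one strand, and the joined isoforms reach from the last exon of LCN8 into LCN5 and from LCN6 into LCN10.

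The start of transcription was approximated by the first base of the isoforms into which the authors merged the full-length reads. The start of each single read is not among the data used. Reads were counted by the start of their isoform where it has a position in the annotation. Isoforms that start at base 1038676 of the scaffold held 1802 of 1845 LCN5 reads (97.7%), and those that start at base 1050220 held 257 of 261 LCN10 reads (98.5%). For PTGDS, 121 of 121 reads (100%) were in isoforms that start at base 891229. For LCN8, 14 of 18 reads were in isoforms that start at base 1033498, and for LCN6, 6 of 14 at base 1045594. Merging makes reads share a start, so these shares do not measure how sharp a start is. The LCN6 start is uncertain, since it lies 180 bases inside the first exon of the annotated transcript that carries 84.1% of the LCN6 TPM, and its stretch is not shown. The LCN8 start is uncertain too. Annotated transcripts with 47.0% and 29.8% of the LCN8 TPM in epididymis start at base 1033822, and 18 of all 22 LCN8 reads were in isoforms with a retained intron. The LCN5 start also lies inside an annotated exon, which covers 155 of the 250 bases before it. The 30 bases that span positions -40 to -11 before each of these starts are shown because promoters often hold a TATA-like element in this stretch. They were read from the RefSeq assembly of Sscrofa11.1, 5′ to 3′ along the gene, and capitals mark the TATA-like letters named after them.
LCN5, AEMK02000682.1:1038636-1038665, plus strand: ccacggggcagggTATAAgctggggctggc
LCN10, AEMK02000682.1:1050180-1050209, plus strand: gactgggttgggccagctgggagaTTTAAg
PTGDS, AEMK02000682.1:891240-891269, minus strand: caagccaggccCATAAataggggtctcccc
LCN8, AEMK02000682.1:1033458-1033487, plus strand: gggcgtgtgcagggctctgagcccgtgggg
LCN5 has TATAA at -27 to -23, PTGDS has CATAA at -29 to -25 and LCN10 has TTTAA at -16 to -12. LCN8 has none of them before the start used here, which may not be that of its main transcripts. These 3 sets of letters were chosen after the sequences were seen. On the same strand and in the same stretch, any of them occurs before 4.89% of 9535 genes with at least 10 reads in isoforms of known start. TATAA alone occurs in 2.06%, CATAA in 0.986% and TTTAA in 1.898%. The letters ATAAG, which follow on from these, occur in 2 of the 5 members and in 1.11% of all.

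In the full 250 bases before the start, neither TATAAA nor AGAACA, the core of the androgen receptor element, occurs on either strand in any of the 5 members with full-length reads. TATAAA occurs in 6.18% and AGAACA in 9.11% of the 9535 promoters. The absence says only that these letters are not in this window. The windows of LCN10 and PTGDS are printed because nearly all of their reads are in isoforms with the same start, and capitals mark the letters at the positions given above. A second CATAA, which runs on into ATAAG, lies further upstream in the PTGDS window and is left in lower case.
LCN10, AEMK02000682.1:1049970-1050219, plus strand: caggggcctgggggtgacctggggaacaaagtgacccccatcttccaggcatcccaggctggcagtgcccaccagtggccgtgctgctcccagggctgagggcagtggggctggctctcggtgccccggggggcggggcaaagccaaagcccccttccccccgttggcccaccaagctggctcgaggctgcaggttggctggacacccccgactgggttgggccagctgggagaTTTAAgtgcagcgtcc
PTGDS, AEMK02000682.1:891230-891479, minus strand: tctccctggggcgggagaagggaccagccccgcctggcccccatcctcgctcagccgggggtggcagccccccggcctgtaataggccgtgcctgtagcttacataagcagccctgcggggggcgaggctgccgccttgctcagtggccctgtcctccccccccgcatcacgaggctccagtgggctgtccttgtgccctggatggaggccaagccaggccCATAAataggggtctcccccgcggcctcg
The 5 windows are 68.8% to 70.4% G and C, against a median of 62.4% over all 9535 windows.

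One prostate library stands apart and touches LCN5. In BMI 2 of the prostate gland, PSP-I, PSP-II and AWN, which are seminal plasma proteins of the vesicular gland, were at 169569, 6078 and 52018 TPM, whereas none exceeded 9.20 TPM in the other 5 prostate libraries. Their sum there, 227665 TPM, compares with 294622 to 370524 TPM in the vesicular gland libraries. HOXB13, a prostate gene, was at 92.7 TPM in it and at 264 to 297 TPM in the others. LCN5 was at 71.9 TPM in this library and at most 0.101 TPM in the other 5, so the LCN5 differences to prostate gland are given with and without it where the deposited scaling is used. The part of vesicular gland RNA in its LCN5 level was not tested.

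Together the 7 members made up 1.29%, 3.35% and 4.37% of all TPM in epididymis libraries BMI 1 to 3 and 8.97%, 0.534% and 1.60% in DSE 1 to 3. In the other 4 glands they made up at most 0.179%. LCN5 held 45.5% to 96.4% of the members' TPM in an epididymis library. PTGDS came next in 5 of the 6 libraries and LCN8, with 28.9%, in BMI 2.

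LCN5, an epididymal carrier of retinoic acid, was the most abundant member in all 6 epididymis libraries. Its level was 9211, 15212 and 42134 TPM in BMI 1 to 3 and 85540, 3451 and 14975 TPM in DSE 1 to 3. By level it was gene number 5, 4 and 2 in the BMI libraries and number 1, 42 and 3 in the DSE libraries. LCN5 alone thus took between 0.345% and 8.55% of all transcripts counted in an epididymis library. In vesicular gland it was at 414, 56.0 and 222 TPM in BMI and at 70.7, 36.6 and 69.1 TPM in DSE. In testis it reached at most 1.58 TPM and in bulbourethral gland at most 1.297 TPM. Every epididymis library thus lay above every library of the other 4 glands. The ratio of the medians was 216 against vesicular gland.

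The remaining genes of the cluster were also highest in epididymis but at levels that differed widely between its libraries. LCN6, an epididymal lipocalin that binds to sperm, was at 4.45, 6126 and 62.2 TPM in BMI 1 to 3 and at 290.4, 0.198 and 4.68 TPM in DSE 1 to 3. LCN8, another epididymal lipocalin, was at 21.2, 9677 and 5.10 TPM in BMI and at 5.78, 1.51 and 3.88 TPM in DSE. LCN10, the last gene of the row, was at 2.55, 203 and 21.4 TPM in BMI and at 1429, 0.582 and 43.8 TPM in DSE. LCN6 and LCN8 were thus highest in BMI 2 and LCN10 in DSE 1, and all 3 were lowest in DSE 2. Outside the epididymis LCN6 reached at most 3.72 TPM, in testis, LCN8 at most 4.35 TPM, in vesicular gland, and LCN10 at most 0.767 TPM, in vesicular gland. The epididymis libraries with low levels overlapped the testis and vesicular gland libraries for LCN6 and the vesicular gland libraries for LCN8 and LCN10.

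LCN15, which lies at the start of the row, did not follow this pattern. It was highest in testis, at 6.82, 9.30 and 7.87 TPM in BMI and 8.97, 5.35 and 9.70 TPM in DSE. In epididymis it was at 4.33, 9.52 and 3.16 TPM in BMI and at 3.88, 1.33 and 2.64 TPM in DSE. It lay between 1.53 and 4.26 TPM in vesicular gland, between 0 and 1.36 TPM in prostate gland and between 0.123 and 3.45 TPM in bulbourethral gland. Testis and epididymis overlapped through BMI 2, the epididymis library in which LCN6 and LCN8 were also highest.

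PTGDS, which converts prostaglandin H2 to prostaglandin D2 and also carries retinoids, was present in every library of the 5 glands. In epididymis it was at 3415, 2234 and 1472 TPM in BMI and at 2383, 1844 and 875 TPM in DSE. All 6 values lay above every testis library (379.5 to 602 TPM) and every vesicular gland library (40.6 to 349.6 TPM). In prostate gland it was at 158, 215 and 69.5 TPM in BMI and at 1677, 222 and 210.0 TPM in DSE. In bulbourethral gland it was at 212, 202 and 896 TPM in BMI and at 266, 331 and 1576 TPM in DSE. Prostate library DSE 1 and bulbourethral libraries BMI 3 and DSE 3 therefore lay within the epididymis range, and 4 of the 6 epididymis libraries lay above all libraries of these glands.

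LCN2, the lipocalin of neutrophil granules and inflamed epithelia that binds iron-carrying siderophores, had no single gland of its own. In epididymis it was at 202, 5.38 and 30.0 TPM in BMI and at 5.76, 36.4 and 68.4 TPM in DSE. In bulbourethral gland it was at 5.18, 25.4 and 26.1 TPM in BMI and at 9.35, 10.1 and 216 TPM in DSE. These glands overlapped over almost their whole range. LCN2 was at 2.87 to 13.9 TPM in vesicular gland, 1.33 to 19.9 TPM in prostate gland and 0.602 to 2.21 TPM in testis, and no testis library reached any epididymis library.

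**Figure D2:**
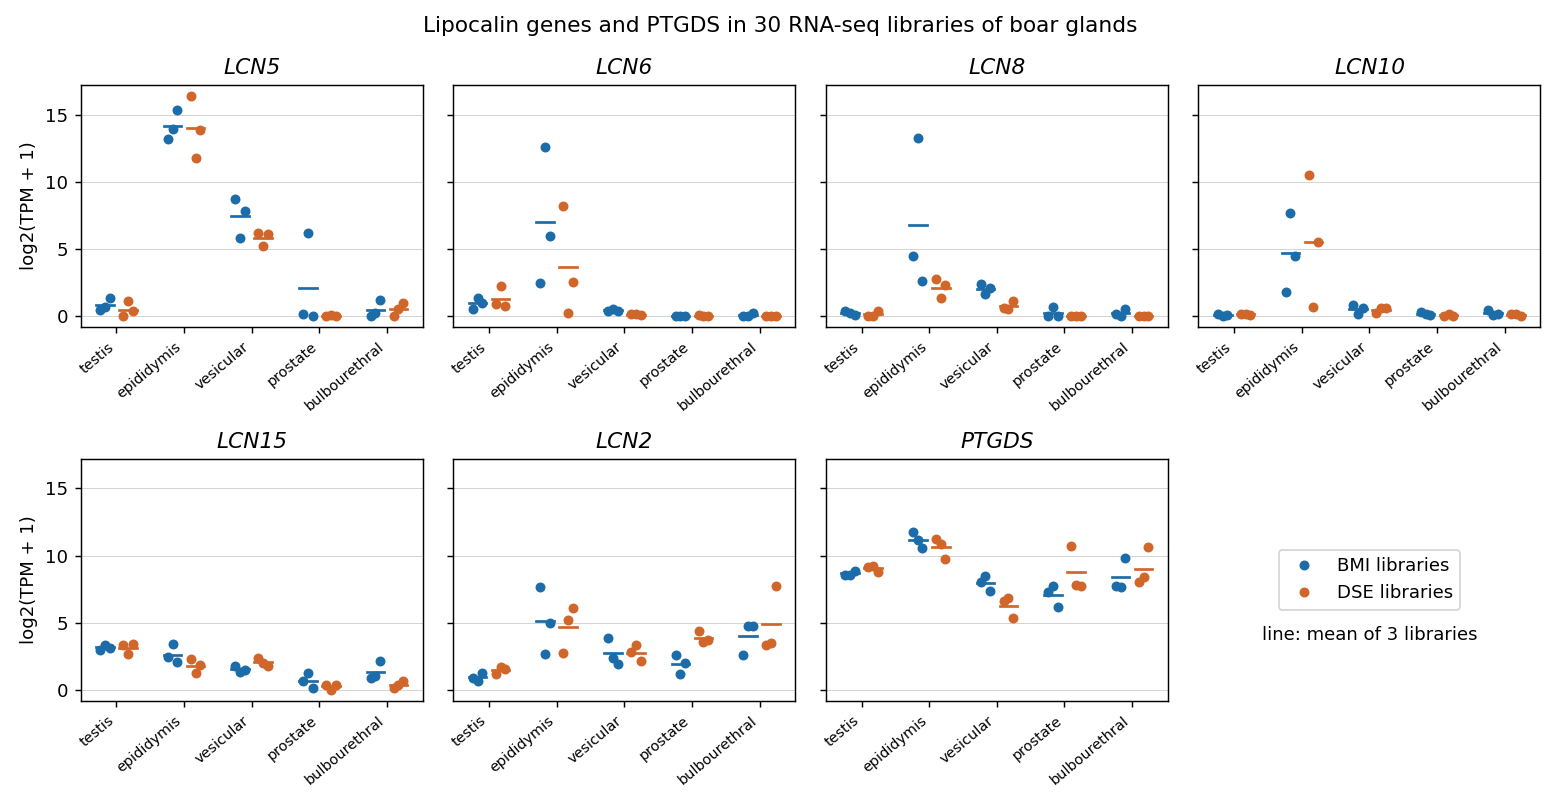
Level of each of the 7 members as log2(TPM + 1) on the y axis in the 5 glands on the x axis, with 1 point per RNA-seq library, breeds in different colours and a line at the mean of the 3 libraries of a breed. LCN5 lies highest in all epididymis libraries, LCN15 in testis, and LCN6, LCN8 and LCN10 spread over most of the axis within the epididymis.

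To ask which members distinguish the epididymis, the epididymis was compared with the mean of the other 4 glands by limma on log2(TPM + 1), with both breeds weighted equally. A gene was called at a Benjamini-Hochberg adjusted p below 0.05 over all genes and a log2 difference of at least 1. Of the 7 members, 6 were called higher and none lower, where 15.1% of all genes tested were called higher and 6.56% lower. The log2 difference of LCN5 was 11.86 (SE 0.63, adjusted p = 1.52e-13), the largest of the members, and it was 12.11 without prostate library BMI 2. LCN6 differed by 4.96 (SE 0.87, adjusted p = 3.75e-05), LCN10 by 4.88 (SE 0.76, adjusted p = 7.47e-06) and LCN8 by 4.002 (SE 0.76, adjusted p = 9.26e-05). LCN6 and LCN10 passed the filter only through the epididymis, with 2 and 0 of the 24 other libraries at 1 TPM or more, so they had to be higher there. Their tests, and all counts of members called between epididymis and other glands, which include them, are descriptions. The other 5 members passed without the epididymis libraries. LCN6, LCN10 and LCN8 had the largest standard errors, as their epididymis values spread over several orders of magnitude. PTGDS differed by 2.72 (SE 0.40, adjusted p = 3.47e-06) and LCN2 by 2.06 (SE 0.58, adjusted p = 0.00397). LCN15 differed by 0.63 (SE 0.21, adjusted p = 0.0106) and was not called because of its size. The median over all genes was 0.25. TPM share out a fixed total, so a few very abundant transcripts lower the values of all other genes in a library. With TPM rescaled by size factors (the median ratio over genes above 0 in all 30 libraries), the median over all genes was -0.13, and the split of all calls changed from 2991 higher and 1299 lower to 1696 higher and 1812 lower. The same 6 members were then called higher, from LCN2 at 1.58 (adjusted p = 0.0154) to LCN5 at 11.31. On the log2(TPM + 1) scale the pseudocount of 1 TPM understates the differences of genes that are near 0 elsewhere. Fewer cells of a type and less RNA per cell cannot be told apart in such bulk samples.

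Between single glands, 6 members were called higher in epididymis than in vesicular gland (34.6% of all genes), 7 than in prostate gland (17.7%) and 6 than in bulbourethral gland (15%), and 6 were called lower in testis than in epididymis (21.6%). Among these comparisons with the epididymis, the one with vesicular gland depends most on the scaling. All genes had a median of 0.74 there with 6843 higher and 380 lower, and a median of 0.05 with 1711 higher and 1291 lower after rescaling. LCN2 (1.15, limma adjusted p = 0.208) and LCN8 (2.34, adjusted p = 0.0629) were then not called, and LCN15 changed from 0.41 to -0.42, neither of them called. Rescaling changed the split against prostate gland from 3499 higher and 727 lower to 1949 higher and 1285 lower, and against bulbourethral gland from 2977 and 1253 to 2318 and 1554. Of the members, LCN2 lost its call against prostate gland (1.52, adjusted p = 0.0873).

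The order of LCN5 levels was epididymis, vesicular gland and then the other 3 glands. LCN5 was lower in vesicular gland than in epididymis by a log2 difference of 7.43 (SE 0.79, limma adjusted p = 4.39e-08). The vesicular gland in turn was higher than the prostate gland by 5.58 (SE 0.79, adjusted p = 7.85e-06), or by 6.60 without prostate library BMI 2, and higher than testis and bulbourethral gland as well. LCN5 of testis, prostate and bulbourethral gland did not pass the test against each other. Testis minus prostate gland was -0.40, and 0.62 without prostate library BMI 2. Prostate minus bulbourethral gland was 0.58, and -0.44 without that library.

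LCN2 was not called between epididymis and bulbourethral gland, with a log2 difference of 0.45 (SE 0.73, limma adjusted p = 0.708). Without bulbourethral library DSE 3, in which LCN2 was at 216 TPM, the difference was 1.17 and again not called (adjusted p = 0.176). LCN2 was higher in epididymis than in vesicular gland by 2.14 (adjusted p = 0.0139) and than in prostate gland by 1.97 (adjusted p = 0.0327). The call against vesicular gland was lost without epididymis library BMI 1 (1.502) and with only the libraries of the glands compared (adjusted p = 0.0598). The call against prostate gland was lost without prostate library BMI 2 (1.79, adjusted p = 0.0723), and also without prostate library BMI 3, DSE 2 or DSE 3 or epididymis library BMI 1, DSE 2 or DSE 3 (1.33 to 1.99), with no filter (adjusted p = 0.0623) and with only the libraries compared (adjusted p = 0.0985). LCN2 was lowest in testis, although the log2 difference of -1.55 to vesicular gland was not called (limma adjusted p = 0.0641). The calls were -3.69 to epididymis (adjusted p = 8.70e-05), -3.25 to bulbourethral gland (adjusted p = 0.000373) and -1.72 to prostate gland (adjusted p = 0.0415). The last call was lost without any 1 of the 6 testis libraries or prostate library BMI 1, BMI 3, DSE 1 or DSE 3, with differences of -1.80 to -1.55, and with no filter (adjusted p = 0.0747) or Ensembl transcripts alone (adjusted p = 0.0523).

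Of the 7 members, 3 were called between testis and vesicular gland (52.9% of all genes in either direction), 2 between testis and prostate gland (48.9%) and 2 between testis and bulbourethral gland (49.1%). LCN15 was in all of these counts. It was higher in testis than in vesicular gland by a log2 difference of 1.35 (SE 0.26, limma adjusted p = 5.04e-05), than in prostate gland by 2.67 and than in bulbourethral gland by 2.28. Its difference between testis and epididymis, 0.94, had an adjusted p of 0.00233 but stayed below 1. It reached 1.06 without testis library DSE 2, 1.13 without epididymis library BMI 2 and 1.07 without DSE 1, and passed. After rescaling, the split of all calls between testis and vesicular gland changed from 8890 higher and 1590 lower to 6414 and 3265. LCN15 (0.64, adjusted p = 0.0538) and PTGDS (0.88, adjusted p = 0.112) were then not called between these glands, LCN2 was called lower in testis (-2.28, adjusted p = 0.00429), and LCN15 was called higher in testis than in epididymis (1.05, adjusted p = 0.00242). LCN15 was also higher in epididymis than in prostate gland by 1.73 and than in bulbourethral gland by 1.33.

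LCN8 shares one estimate of the spread over all glands, to which epididymis library BMI 2 adds most. Without that library LCN8 was called higher in vesicular gland than in prostate gland (1.28, limma adjusted p = 0.000355) and bulbourethral gland (1.28, adjusted p = 0.000166), and testis minus vesicular gland was -1.21 (adjusted p = 0.000131). With only the libraries of both glands in the fit, its calls for epididymis against vesicular gland (3.06, adjusted p = 0.112), prostate gland (4.34, adjusted p = 0.0531) and bulbourethral gland (4.34, adjusted p = 0.0604) were lost.

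Among the accessory glands, 2 members were called between vesicular and prostate gland (14.8% of all genes), LCN5 and LCN15, and 2 between vesicular and bulbourethral gland (27.7%), LCN5 and PTGDS. PTGDS was lower in vesicular gland than in bulbourethral gland, with a log2 difference of -1.60 (SE 0.50, limma adjusted p = 0.0101), and higher in testis than in vesicular gland by 1.76 (adjusted p = 0.00311), a call that was lost with Ensembl transcripts alone (-0.0191, adjusted p = 0.982). It was higher in epididymis than in each other gland, by 3.76 against vesicular gland, 2.96 against prostate gland and 2.16 against bulbourethral gland, and testis minus epididymis was -1.998. The call against bulbourethral gland was lost with Ensembl transcripts alone (0.75, adjusted p = 0.166) and with library weights (1.69, adjusted p = 0.0522). The calls of all genes split into 817 higher and 4675 lower in vesicular against bulbourethral gland and 679 and 2251 against prostate gland, and into 1748 and 1512 and 1306 and 1089 after rescaling. PTGDS was then not called against bulbourethral gland (-0.74, adjusted p = 0.281), whereas LCN15 was (1.56, adjusted p = 0.000145). Between prostate and bulbourethral gland no member was called by limma (7.65% of all genes), and 1 of 7 members, LCN2, had an unadjusted p below 0.05, as did 28.9% of all genes. The split of all calls there was 398 higher and 1116 lower, and 616 and 709 after rescaling.

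**Figure D3:**
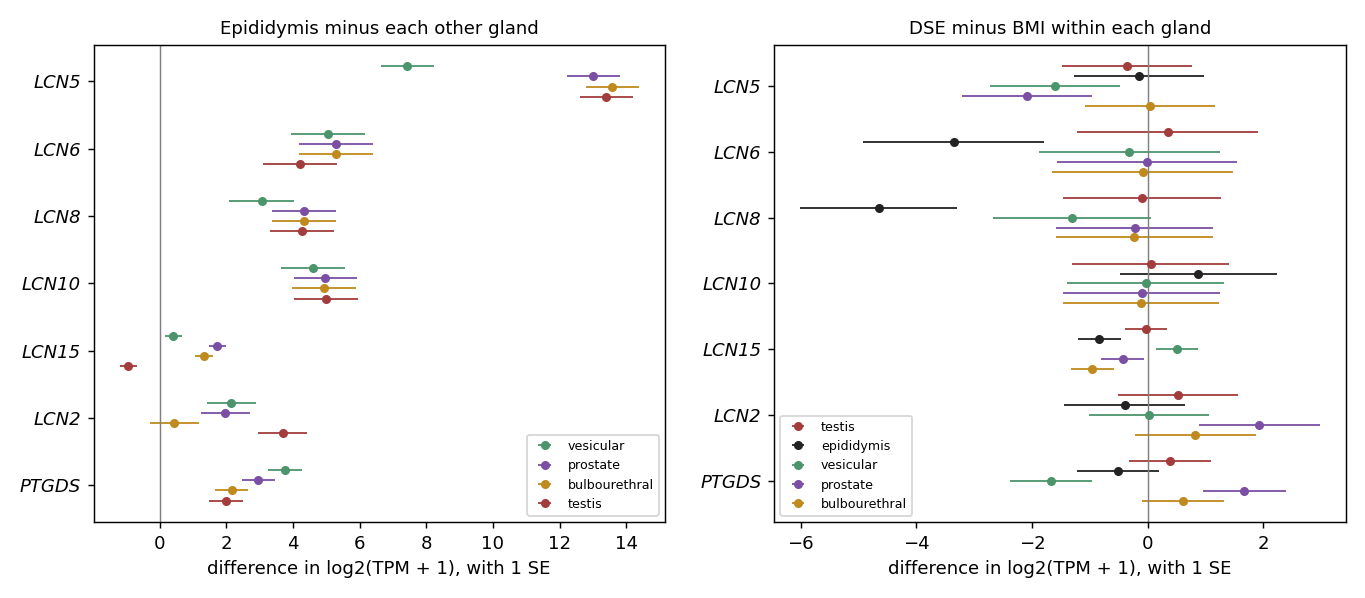
Log2 differences of the 7 members with 1 standard error from the limma fit, on the left epididymis minus each other gland and on the right DSE minus BMI in each gland. On the left LCN5 reaches 7.43 to 13.59 with all libraries (against prostate gland 13.01, and 14.03 without prostate library BMI 2) and LCN15 stays below 2, and on the right LCN6 and LCN8 in epididymis lie lowest, with the widest bars.

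The comparison of DSE with BMI asks whether the breeds differ within a gland. No member was called by limma in any of the 5 glands, where 0.702% of all genes were called in epididymis, 4.78% in testis and 0.298%, 0.596% and 0.49% in the bulbourethral, prostate and vesicular glands. Unadjusted p-values below 0.05 were found for 3 members in epididymis and for 1 each in vesicular, prostate and bulbourethral gland. Of all genes, 7.14% had such a p in epididymis, 12.1% in vesicular gland, 13.1% in the prostate and 3.96% in the bulbourethral gland. In epididymis LCN8 differed by -4.65 (SE 1.36, unadjusted p = 0.00225, adjusted p = 0.154), LCN6 by -3.35 (SE 1.56, adjusted p = 0.656) and LCN15 by -0.83 (SE 0.37, adjusted p = 0.601). LCN5 differed by -0.14 (SE 1.12), LCN10 by 0.88 (SE 1.35), PTGDS by -0.52 (SE 0.71) and LCN2 by -0.40 (SE 1.04), each with an adjusted p of 1. The breeds overlapped in epididymis for all 7 members, where 5.36% of all genes tested did not overlap. With joined isoforms added, which hold only part of the last LCN8 exon, the LCN8 difference was -1.10 (adjusted p = 0.968).

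The LCN8 and LCN6 differences turn on single libraries. Without BMI 2 of the epididymis, LCN8 differed by -1.41 (limma adjusted p = 0.0960) and LCN6 by -0.56 (adjusted p = 1). Without BMI 1 both passed the threshold, LCN8 at -5.80 (adjusted p = 0.0413) and LCN6 at -5.63 (adjusted p = 0.0453). LCN8 also passed it without BMI 3, at -6.73 (adjusted p = 0.00491). With both BMI 2 and DSE 1 left out, a setting chosen after the data were seen, LCN8 differed by -1.73 (adjusted p = 0.0275) and LCN6 by -2.83 (adjusted p = 0.0395). LCN10 ranged from -1.59 without DSE 1 to 3.32 without DSE 2, and neither passed the test.

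In the other glands the breeds did not overlap for 3 members in vesicular gland (22.9% of all genes tested), 1 in prostate gland (31.5%), 1 in bulbourethral gland (9.63%) and none in testis (22.9%). These counts are of the order of those shares. PTGDS in vesicular gland was at 266, 349.6 and 159.8 TPM in BMI and at 96.3, 114 and 40.6 TPM in DSE, a log2 difference of -1.67 (SE 0.71, limma adjusted p = 0.347), where the median of all genes was -0.27. After rescaling it was -1.16. LCN2 in prostate gland was at 5.16, 1.33 and 3.09 TPM in BMI and at 19.9, 10.8 and 12.3 TPM in DSE, a difference of 1.94 (SE 1.04, adjusted p = 0.419), where the median of all genes was 0.23. Rescaling changed the split of all calls between the breeds from 34 higher and 63 lower to 98 and 62 in vesicular gland and from 98 and 20 to 63 and 64 in prostate gland. LCN15 in bulbourethral gland was at 0.846, 1.01 and 3.45 TPM in BMI and at 0.123, 0.289 and 0.572 TPM in DSE, a difference of -0.95 (SE 0.37, adjusted p = 0.763). LCN8 and LCN6 in vesicular gland were the others, with DSE below BMI and no value above 4.35 TPM. PTGDS in prostate gland differed by 1.68 (SE 0.71, adjusted p = 0.321), and by 0.69 without DSE 1, the library with 1677 TPM. The difference between the breeds in epididymis did not itself differ from that in the other glands for any member by limma (0.157% of all genes called), and LCN8 came lowest at -4.18 (adjusted p = 0.507).

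The spread between epididymis libraries was measured as the SD of log2(TPM + 1) within a breed, pooled over both breeds. LCN6 had an SD of 4.64, LCN8 of 4.05 and LCN10 of 4.04, which placed them at 27, 40 and 41 of the 19796 genes tested. The median of all genes was 0.50. LCN2 had an SD of 2.15 and LCN5 of 1.82, at 257 and 444 of all genes, whereas PTGDS with 0.68 and LCN15 with 0.62 lay near the bulk of genes. In TPM, the highest epididymis library exceeded the lowest 30956-fold for LCN6, 6388-fold for LCN8, 2454-fold for LCN10, 37.5-fold for LCN2, 24.8-fold for LCN5 and 3.90-fold for PTGDS. The ratio of LCN6 rests on a value of 0.198 TPM in the lowest library. The spread of LCN8 depends on how joined isoforms are assigned. Those that join LCN8 to LCN5 start inside the last annotated exon of LCN8 and all reach coding exons of LCN5, so they hold little of LCN8. With joined isoforms added LCN8 ranged from 257 to 10045 TPM, a 39.0-fold ratio with an SD of 2.03, while the ratios of LCN5, LCN6 and LCN10 were 22.2, 23600 and 2239.

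Some genes that mark segments of the epididymis varied between the same libraries. RNASE10, which is known from the proximal epididymis, was at 3.88, 10293.5 and 12.0 TPM in BMI 1 to 3 and at 20.1, 3.09 and 15.4 TPM in DSE 1 to 3. CST11, another proximal gene, was at 0.736, 5074 and 6.33 TPM in BMI and at 8045, 0.482 and 719 TPM in DSE. RNASE10 was thus high where LCN8 was high, in BMI 2, and CST11 was high in BMI 2 and DSE 1, where LCN6 and LCN10 had their highest values. Of the 9 proximal markers 7 are in the table, and their summed level was 27962 TPM in BMI 2 and 10489 TPM in DSE 1, against 740.0 to 3151 TPM in the other 4. OVCH2 was at 15.2 and 18.0 TPM in BMI 2 and DSE 1 and at 0 in the others. CST11 alone made up most of the sum in DSE 1. ADAM28 was lowest in DSE 1, at 57.5 TPM, with 73.2 to 1303 TPM in the others, and ADAM7 was at 1399 TPM there, below BMI 3 (2211 TPM) and DSE 3 (2315 TPM).

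CD52, which is known from the distal epididymis, was at 11951, 2322 and 41561 TPM in BMI and at 7.03, 14959.6 and 5409.7 TPM in DSE. The summed level of the 4 distal markers in the table (of 5 listed) was 40.2 TPM in DSE 1 and 6805 to 45174 TPM in the others, and CD52 made up most of it in BMI 3. CES5A and CRISP1 were highest in BMI 2, at 1724 and 2759 TPM, and lowest in DSE 1, at 6.74 and 21.3 TPM. AQP9 was at 5.15 TPM in DSE 1, above DSE 3 (4.32 TPM) and BMI 2 (0.435 TPM). DSE 1, the library with the lowest distal sum, had the highest LCN5, and BMI 3, with the highest sum, had the LCN5 value next to it. DSE 2 and BMI 1, with the lowest proximal sums (740.9 and 740.0 TPM), had the lowest LCN5, LCN6 and LCN10. LCN8 went otherwise, with its lowest level in DSE 2 (1.51 TPM) but 21.2 TPM in BMI 1, next after BMI 2. GPX5, also on the proximal list, was at 194 TPM in DSE 2, above BMI 1 (13.7 TPM), BMI 3 (4.42 TPM) and DSE 3 (9.24 TPM). By the study's own quality measures, library DSE 1 also had the lowest transcript integrity and the largest unmapped share of all RNA-seq libraries. Smooth muscle markers (4 of 4 in the table) summed to 14332 TPM in DSE 2, 9223 TPM in BMI 1 and 1713 to 5404 TPM in the others. Vesicular gland markers (3 of 4 in the table) summed to 5377 TPM in BMI 1, 1068 TPM in DSE 2 and 2.68 to 174 TPM in the others. The part of RNA quality and of segment, muscle and vesicular gland markers in the lipocalin levels was not tested.

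LCN2 and the neutrophil markers peaked in different epididymis libraries. The 5 neutrophil genes in the table (of 8 listed) summed to 5.99, 4.25 and 1.13 TPM in BMI and to 0.250, 61.2 and 13.8 TPM in DSE, with MPO at 0 in all 6. LCN2 was highest in BMI 1, at 202 TPM, where this sum was 5.99 TPM, and was 36.4 TPM in DSE 2, where the sum was highest. In bulbourethral gland the sum was 1.70 to 8.04 TPM, and it was highest in DSE 3, the library with LCN2 at 216 TPM, next to 7.93 TPM in BMI 2, with LCN2 at 25.4 TPM. Their part in the LCN2 levels was not tested.

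**Figure D4:**
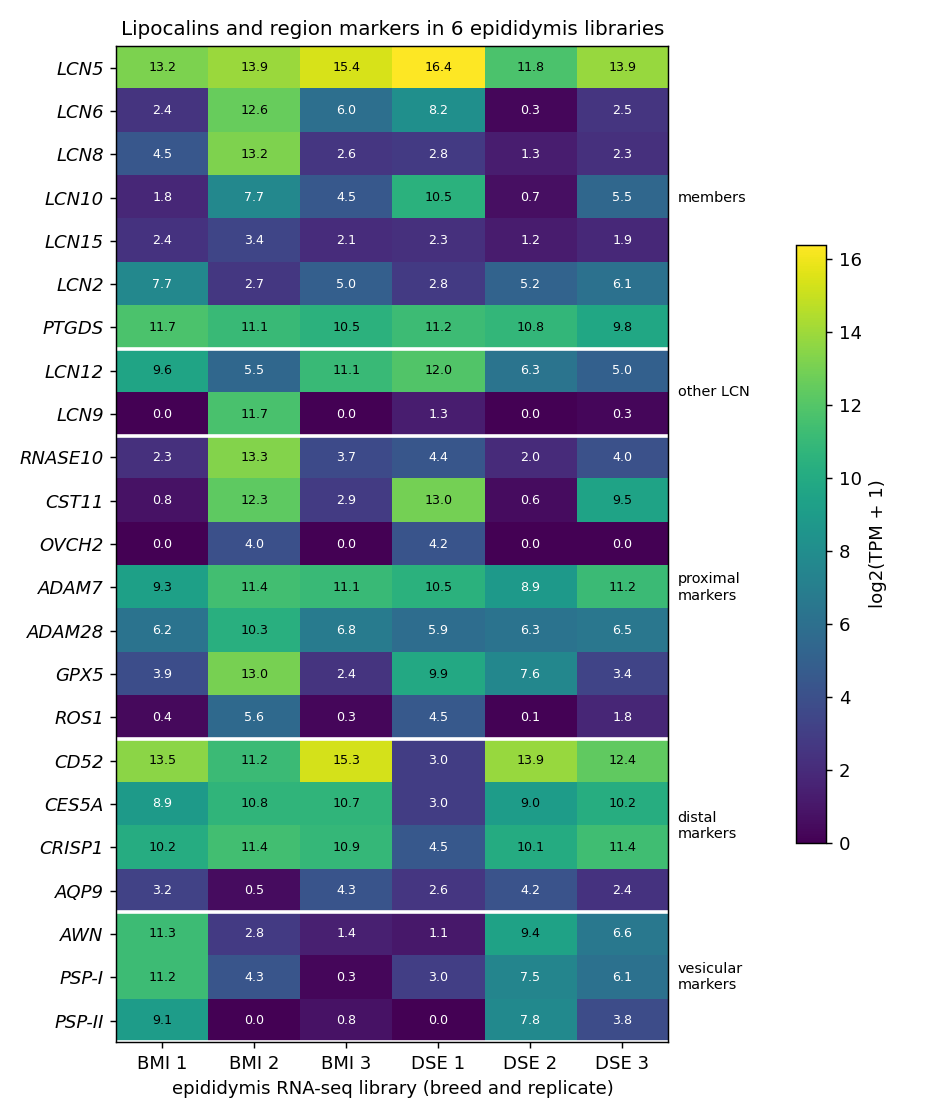
Heat map of log2(TPM + 1) in the 6 epididymis libraries (columns) for the members, LCN12, LCN9 and markers of proximal epididymis, distal epididymis and vesicular gland. BMI 2 and DSE 1 are high in LCN6, LCN10 and CST11, BMI 2 alone in LCN8, LCN9 and RNASE10, and DSE 1 is low in CD52 and CRISP1.

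LCN12 and LCN9, lipocalins named by their RefSeq position, spread in ways of their own. LCN12, an epididymal lipocalin next to PTGDS, was at 752, 44.3 and 2213 TPM in BMI and at 4004, 78.9 and 30.9 TPM in DSE, and at most 7.16 TPM in the other glands. Like LCN5 it was highest in DSE 1 and BMI 3. LCN9, also an epididymal lipocalin, was at 3348 TPM in BMI 2 and at most 1.45 TPM in the other 5 libraries.

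Full-length reads gave a second measure of the same genes, with 1 library per breed and gland and no replicates. The deposited isoform table holds 231413 to 458697 full-length reads of a library, which are part of the reads sequenced, and intervals are exact Poisson 95% intervals that cover counting error only. LCN5 had 256 reads in BMI epididymis, or 558 RPM (492 to 631), and 1886 in DSE epididymis, or 8149.9 RPM (7786 to 8526). LCN10 had 109 reads in BMI (238 RPM, 195 to 287) and 152 in DSE (657 RPM, 557 to 770). LCN6 had 93 reads in BMI (203 RPM, 164 to 248) and 6 in DSE (25.9 RPM, 9.52 to 56.4). LCN8 had 22 reads in BMI (48.0 RPM, 30.1 to 72.6) and none in DSE, where 3 reads would be 12.96 RPM. LCN5 and LCN10 were thus higher in the DSE library and LCN6 and LCN8 in the BMI library by more than counting error. The table holds a smaller part of the DSE than of the BMI library, by the totals of full-length reads in the study's supplement. Scaled to those whole library totals instead, a setting added after the data were seen, LCN5 was at 374 RPM (329.9 to 423) in BMI and 3483 RPM (3327 to 3643) in DSE. The ratio of DSE to BMI was then 9.30 in place of 14.6 for LCN5 and 1.76 in place of 2.76 for LCN10, and these 4 directions held beyond counting error. The LCN8 direction rests on leaving the joined isoforms apart. The isoforms that join LCN8 to LCN5 hold only part of the last LCN8 exon, and all reach coding exons of LCN5. With their reads added, LCN8 was at 944 RPM in BMI and 5276 RPM in DSE, so that this sum was higher in the DSE library. The difference between boars of a breed was not measured in this way.

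PTGDS gave 60 reads in BMI epididymis (131 RPM, 99.8 to 168) and 30 in DSE epididymis (129.6 RPM, 87.5 to 185), with intervals that overlap, as they did with the whole library totals (66.9 to 113 and 37.4 to 79.1 RPM). Of the other 8 libraries BMI bulbourethral gland had 18 PTGDS reads (46.3 RPM, 27.5 to 73.2), and the rest had at most 4. LCN5 had 1 read each in BMI vesicular gland, DSE vesicular gland and BMI prostate gland and none in the other 5. LCN2 and LCN15 had no full-length read in any of the 10 libraries. In epididymis the chosen floor of 3 reads corresponds to 6.54 RPM in BMI and 12.96 in DSE, and a lower level can still give single reads. RPM and TPM are not on one scale. PTGDS was at 875 to 3415 TPM in the epididymis RNA-seq libraries, far above its RPM. LCN2 reached 202 TPM there without a full-length read, so its 0 reads do not mean absence. The reason for the gap was not tested.

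**Figure D5:**
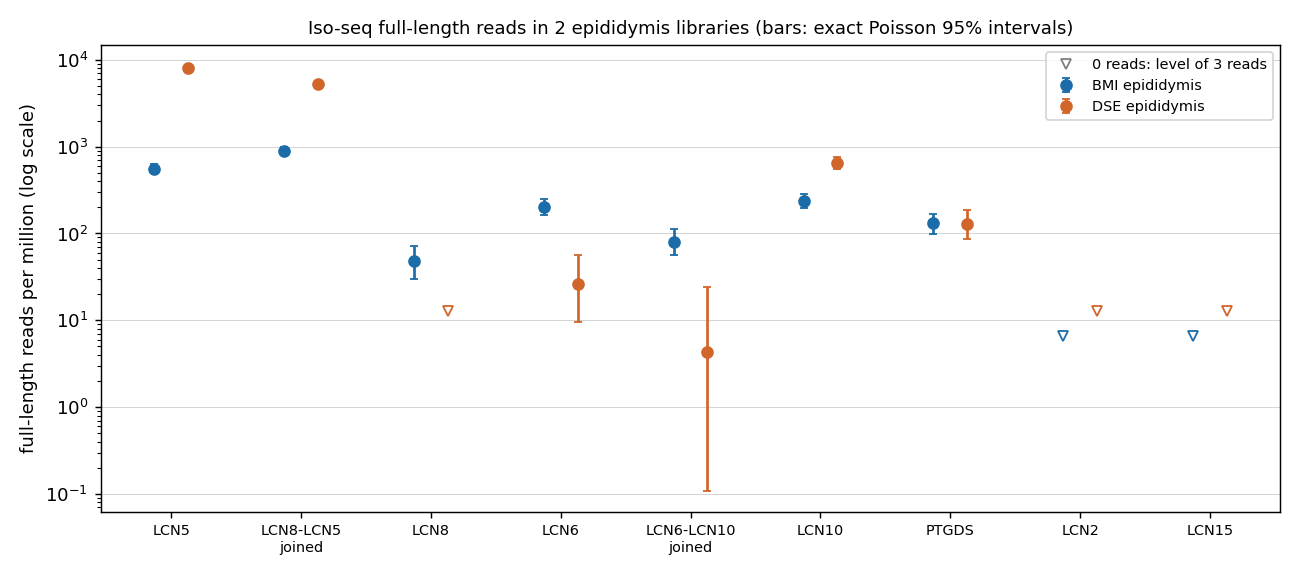
Full-length reads in RPM of the reads kept in the deposited isoform table (log y axis), of the members and joined isoforms in the BMI and DSE epididymis libraries (1 each), with exact Poisson 95% intervals and open triangles at the level of 3 reads where none was found. LCN5 lies highest in DSE at 8149.9 RPM, the intervals of PTGDS overlap, and LCN2 and LCN15 have no reads.

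The authors' isoform table shows which transcripts carry these levels. LCN5 had 44 isoforms with 2145 reads, of which 30 isoforms with 1729 reads had splice sites outside the annotation (the class NNC). The leading isoform, with 7 exons, 689 bp and a predicted protein of 181 amino acids, held 53.5% of the reads and 77.2% of the LCN5 TPM in epididymis. Isoforms with a retained intron held 32.3% of LCN5 reads, and isoforms predicted to undergo nonsense-mediated decay (NMD) held 0.886%. PTGDS had 4 isoforms, all of class NNC, and 1 of them, with 7 exons, 779 bp and a predicted protein of 207 amino acids, held 90.9% of 121 reads.

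LCN10 and LCN8 stood at the other end. All 29 LCN10 isoforms were of class NNC, 83.1% of 261 reads were in isoforms with a retained intron and 78.9% in isoforms predicted for NMD. The leading LCN10 isoform by reads (36.0%) has 9 exons and a predicted protein of 139 amino acids, and was at 9.96 TPM in epididymis library DSE 1 and at 0 in the other 5. An LCN10 isoform with 36 reads, 6 exons and a predicted protein of 185 amino acids, not predicted for NMD, was at 135 TPM in BMI 2 and 1141 TPM in DSE 1. LCN8 had 4 isoforms with 22 reads, of which 18 (81.8%) were in isoforms with a retained intron and predicted for NMD. LCN6 had 6 isoforms with 99 reads, and 85 of these matched an annotated transcript in full. All reads of LCN5, LCN6, LCN8, LCN10 and PTGDS were in isoforms that end after a polyadenylation motif, against 87.0% of reads over all isoforms. The motif was AATAAA throughout except in LCN10, where AATAAA accounted for 77.0% of reads.

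Many reads joined neighbouring lipocalins. The authors classed 51 isoforms with 1639 reads as fusions of LCN8 and LCN5, 411 in BMI epididymis (896 RPM, 811 to 987) and 1221 in DSE epididymis (5276 RPM, 4984 to 5581). In BMI epididymis they outnumbered the 256 reads of LCN5 itself. The RNA-seq libraries of BMI epididymis showed the opposite balance, with joined transcripts at 236 to 524 TPM and LCN5 at 9211 to 42134 TPM. All joined LCN8-LCN5 isoforms start inside the last annotated exon of LCN8 (1036980 to 1037992), those with 1375 reads at base 1037093, and all reach coding exons of LCN5. Between an AATAAA at 1037062 to 1037067 and base 1037093 lie 25 bases, and base 1037093 is 1583 bases before the leading start of LCN5. The full-length isoforms of LCN8 itself end at base 1037085, with 7 bases between that end and the joined start. Isoforms with a retained intron held 98.6% of the joined reads.

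The TPM of the joined LCN8-LCN5 transcripts differed less between epididymis libraries than LCN5 did. It was 236, 368 and 524 TPM in BMI and 840.2, 439 and 367 TPM in DSE. In vesicular gland the joined transcripts were at 1.07 to 15.4 TPM, and epididymis exceeded the other 4 glands by a log2 difference of 7.81 (SE 0.29, limma adjusted p = 1.07e-16). LCN6 and LCN10 were joined by 9 isoforms with 38 reads, 37 of them in BMI epididymis, at 0.0640 to 53.6 TPM in epididymis. Short reads from shared exons are divided by salmon between the joined transcripts and the genes, so the LCN8, LCN5, LCN6 and LCN10 levels depend on that division. When the joined transcripts were added to both genes, the log2 difference of LCN8 between epididymis and the other 4 glands was 8.49, and its breed difference in epididymis was -1.10.

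Genes linked to the members by function were counted from lists typed from general knowledge. The counts read against 15.1% of all genes called higher and 6.56% lower as deposited, and 8.57% and 9.15% after rescaling by size factors. Of the prostaglandin list, 20 of 21 genes were tested and 6 were called higher in epididymis than in the other 4 glands by limma, none lower, with a median log2 difference of 0.39 beside 0.25 over all genes. The largest were PTGER3, a receptor of prostaglandin E2 (2.31), PTGS2, the inducible cyclooxygenase (1.74), PTGIS, the prostacyclin synthase (1.69), and PTGFR, the receptor of prostaglandin F2 alpha (1.48). These 4 were also called after rescaling by size factors, a setting added for the lists after the data were seen, and the other 2 were not. Receptors of prostaglandin D2 were low. PTGDR was at 0.0179 to 0.723 TPM and PTGDR2 at 0.125 to 1.29 TPM in epididymis. HPGDS, the other prostaglandin D synthase, was at 0 to 1.86 TPM in epididymis, where PTGDS was at 875 TPM or more.

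Of the 17 retinoid genes, all tested, 4 were called higher and none lower (median 0.37). ALDH1A1, which makes retinoic acid, was higher by 4.21, with 367 to 1585 TPM in epididymis. ALDH1A3, which also makes retinoic acid, was higher by 1.40, and STRA6, a receptor of retinol-binding protein, by 1.01. After rescaling ALDH1A1 was called and ALDH1A3 and STRA6 were not, and DHRS3 was called lower. Of the 8 genes linked to LCN2, 5 were called higher and none lower (median 1.22). Among them were LTF, the iron carrier lactoferrin, by 6.79, LRP2, the endocytic receptor megalin, by 2.88, NFKBIZ by 1.48 and SLC22A17, a receptor of LCN2, by 1.26. After rescaling 3 of the 5 were called, which were LTF, LRP2 and NFKBIZ. Of 12 other lipocalins and related carriers 7 were tested, with 1 called higher, CRABP1 (3.83), a cytosolic carrier of retinoic acid, and 1 lower, SAL1 (-2.97), the salivary lipocalin of boars, with a median of 0.46, and both calls were also made after rescaling. Between the breeds in epididymis none of the tested genes of these 4 lists was called by limma. Markers of other cells moved with the same comparison. All 4 smooth muscle markers were called higher in epididymis, ACTA2 by 3.76, MYH11 by 4.16, DES by 3.89 and CNN1 by 3.66, also after rescaling, as was haemoglobin HBB, by 2.46. Of the 4 neutrophil genes tested S100A12 (1.05) and CSF3R (1.06) were called higher, and none after rescaling. Of the 6 epithelium markers 5 were called higher and none lower, and KRT5 and TP63 were also called after rescaling. All 4 Leydig cell markers tested were called lower, as were 2 of 6 spermatid markers. The part of these cell markers in the list counts was not tested.

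The genes most like each member were found by Pearson correlation of log2(TPM + 1) over the 30 RNA-seq libraries among 13885 genes with a symbol. These values are descriptions, since the points share libraries and glands. LCN5 was closest to SPINK14 (r = 0.966), TFAP2B (0.961) and EDDM3B (0.961). LCN6 was closest to SLC17A2 (0.987) and the beta-defensins DEFB113 (0.947) and DEFB114 (0.944), LCN8 to RNASE10 (0.943), TNFRSF11B (0.893) and DEFB113 (0.857), and LCN10 to EDDM13 (0.979), GDPD2 (0.978) and TTC24 (0.977). EDDM13 shows the likeness to LCN10 within the epididymis as well, at 7.42, 1138 and 87.7 TPM in BMI and 24703, 8.01 and 1071 TPM in DSE. LCN2 was closest to MMP7 (0.876), TNFRSF1A (0.866) and FRZB (0.865), and MMP7 was at 1013 TPM in BMI 1, the library with the most LCN2, and at 0.339 TPM in DSE 1. PTGDS (PRMT1, 0.896, ZNF428, 0.883, and ADGRB2, 0.874) and LCN15 (ELP5, 0.880, ANKRD45, 0.876, and PPM1J, 0.871) had no gene above 0.9.

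Over the 6 epididymis libraries alone, among 7478 genes with a mean of at least 10 TPM there, the closest genes were others. They were C19orf81 (0.996), YDJC (0.994) and SAT2 (0.985) for LCN5, CRYZ (0.965), HOXB9 (0.965) and CLPTM1L (0.959) for LCN6, GRHL2 (0.981), DDX49 (0.973) and PPP4C (0.973) for LCN8, and LARGE2 (0.993), HOXD8 (0.992) and SLC35B1 (0.987) for LCN10. For LCN2 they were THBS1 (0.980), B2M (0.980) and CCN1 (0.956), for PTGDS ABCB8 (0.949), TOLLIP (0.949) and OTUD5 (0.934), and for LCN15 TRABD (0.988), FOLR2 (0.982) and NUDT1 (0.976). With 6 points, which share segment and tissue makeup, these values describe the libraries only.

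Neighbours of the cluster did not share its range. TMEM141, 5924 bp before LCN15 on the other strand, was at 51.3 to 154 TPM in epididymis with a median of 202 TPM in testis. DIPK1B, 22413 bp after LCN5, was at 22.7 to 68.1 TPM in epididymis. LCN2 lies between PTGES2, a prostaglandin E synthase at a median of 6.51 TPM in epididymis, and DNM1, at a median of 6.42 TPM. CLIC3, next to PTGDS on the side away from LCN12, had a median of 4.02 TPM in epididymis.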

How the data were processed

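RNA-seq of 30 libraries (3 for each of 2 breeds in 5 glands) and Iso-seq of 10 libraries were used. The authors clustered full-length reads, mapped them to susScr11 with GMAP/GSNAP 2018-07-04, classified the isoforms with SQANTI3 against the Ensembl annotation and deposited full-length read counts for each isoform with its length, exons and predicted reading frame. They merged the isoforms that were not full or partial matches to Ensembl transcripts with the Ensembl transcripts, and deposited RNA-seq TPM per transcript. For these TPM the submitters' processing notes name STAR 2.7.10a and Salmon 1.9.0. The protocols differ on whether the RNA-seq RNA was poly(A) selected or depleted of rRNA, which could change levels of transcripts with short tails. The small RNA table was not used.

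Here TPM were summed by gene over the 133722 transcripts, and isoforms that the authors joined to more than 1 gene were kept apart. The 19796 genes that reached 1 TPM in 3 or more libraries were fitted on log2(TPM + 1) with limma 3.58.1 (R 4.3.3; lmFit, eBayes with trend) with 10 group means. P-values are two-sided and Benjamini-Hochberg adjusted over all genes, with a call at an adjusted p below 0.05 and an absolute log2 difference of at least 1. Full-length reads were divided by the library's total over the deposited isoform table (231413 to 458697), which is less than the library sequenced, with exact Poisson 95% intervals and a floor of 3 reads. Python 3.11.15, pandas 2.3.3 and scipy 1.17.1 were used for the rest. The procedure was also run on simulated data in which a gene had the same spread in all glands. It does not cover members of unequal spread, such as LCN6 with an SD of 4.64 in epididymis and 0.0298 in prostate gland.

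The members and the gene and marker lists were chosen with earlier results of these data known. The genes named are the members, the 3 genes with a symbol that correlate best with each, their nearest neighbours with a symbol, up to 4 called genes of each list and the markers. PTGDR, PTGDR2, HPGDS, LCN12, LCN9 and EDDM13 and MMP7 levels were added after their values were seen. On the scaffold, 711 of 1198 Ensembl exons (59.3%) have the same start and end in RefSeq, so both were read as one build. The alternatives were another pseudocount, no filter, size factors, replicate blocks, no variance trend, library weights, only the libraries compared, joined isoforms added, Ensembl transcripts alone, isoforms of at least 10 reads, whole library totals for the full-length reads (from the study's supplement, added after the data were seen) and leaving out each library. Some genes of the lists are not reported here.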

Additional observations from a re-analysis of the deposited data

Results flagged for a closer look

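In each member and gland, the highest and the lowest of the 6 RNA-seq libraries were compared with their nearest neighbour by Dixon's rule, and 7 of 35 sets of 6 held a library past the critical value for 6 samples. Chance gives about 1 in 20 sets of independent, normally spread values, which these are not, since members share libraries and several sets lie mostly at or near 0. LCN8 was at 9677 TPM in epididymis library BMI 2 and next at 21.2 TPM. PTGDS was at 1677 TPM in prostate library DSE 1 and next at 222 TPM. In prostate library BMI 2, which is high in vesicular gland genes, LCN5 was at 71.9 TPM and next at 0.101 TPM, and LCN8 was at 0.589 TPM with the other 5 libraries at 0. The other 3 lay below 1 TPM in bulbourethral gland. LCN6 was at 0.165 TPM in BMI 3 and next at 0.0224 TPM, LCN8 was at 0.445 TPM in BMI 3 and next at 0.116 TPM, and LCN10 was at 0.351 TPM in BMI 1 and next at 0.0999 TPM.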

How the results depend on the processing

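Between epididymis and the other 4 glands, each member kept its direction and its call under all 279 combinations of member and alternative but 1, in which LCN15 passed with a pseudocount of 0.1 TPM (1.20, limma adjusted p = 0.00812). LCN6 and LCN10 passed the filter only through the epididymis. Their part of this count, and of the pairs of glands with the epididymis below, is a description. LCN10 could not be tested with Ensembl transcripts alone. Over the other settings the log2 differences were 7.40 to 13.37 for LCN5, 4.73 to 6.84 for LCN6, 3.60 to 8.49 for LCN8, 4.56 to 6.89 for LCN10, 1.58 to 2.54 for LCN2, 1.48 to 2.73 for PTGDS and 0.27 to 1.20 for LCN15, with the lowest LCN5 and PTGDS values from Ensembl transcripts alone. Without 1 library they were 11.26 to 12.42 for LCN5, 3.57 to 6.10 for LCN6, 2.39 to 5.04 for LCN8, 3.64 to 6.10 for LCN10, 1.42 to 2.67 for LCN2, 2.57 to 2.93 for PTGDS and 0.44 to 0.78 for LCN15. Between the breeds in epididymis, LCN6 and LCN8 passed with library weights (-5.60 and -5.68) and without both BMI 2 and DSE 1 (-2.83 and -1.73), and without 1 library they ranged from -5.63 to -0.56 and from -6.73 to -1.41. Library weights, whose estimation stopped before full convergence, also called their interaction (-5.47 and -5.35), LCN5 and PTGDS in vesicular gland (-1.74 and -1.95), LCN2 in prostate gland (1.36) and LCN15 in bulbourethral gland (-1.43). The cause was not tested. Between pairs of glands 2734 of 2818 combinations kept the call, 48 gained and 34 lost it, and 2 changed sign where a call was made before or after. The sign changed in 38 in all, among them LCN15 between epididymis and vesicular gland after rescaling (-0.42) and LCN5 between testis and prostate gland (0.62) and between prostate and bulbourethral gland (-0.44) without prostate library BMI 2. The 2 with a call are PTGDS with Ensembl transcripts alone, at -0.0191 (testis minus vesicular gland) and -1.05 (testis minus bulbourethral gland), a setting that leaves out the Iso-seq isoforms.

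Of all genes, 2991 were called higher and 1299 lower in epididymis than in the other 4 glands, and 4352 and 2163 with a pseudocount of 0.1 TPM, 1696 higher with size factors and 626 lower with Ensembl transcripts alone. Between the breeds in epididymis the counts of 82 higher and 57 lower became 0 and 0 with only the libraries compared, and reached 185 without BMI 1 and 164 without DSE 3. In the other glands the highest counts were with library weights, such as 1149 against 98 higher in prostate gland and 665 against 63 lower in vesicular gland, except for testis, where 729 lower became 1372 without DSE 3. For the interaction 18 higher and 13 lower reached 93 without BMI 2 and DSE 1 and 84 without DSE 3.

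Libraries of the same number deviated together by over 0.1 in 21 of 60 pairs of glands (median 0.04), against 18 of 120 for different numbers (median -0.03), and in 4 of 15 pairs of breeds, against 10 of 30. Not every pair deviated together and the labels do not say what a number marks, so the libraries were not treated as paired. With the replicate block LCN5 differed by 11.86 between epididymis and the other glands, and no member's call in that comparison changed.

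The isoforms that join LCN8 to LCN5 hold only part of the last LCN8 exon. With joined isoforms added, full-length reads moved to 1454 RPM (BMI) and 13426 RPM (DSE) for LCN5, 944 and 5276 RPM for LCN8, which turns its direction between the breeds, 283 RPM (BMI) for LCN6 and 318 RPM (BMI) for LCN10. With isoforms of at least 10 reads alone they were 8.64 RPM (DSE) for LCN6, 26.2 RPM (BMI) for LCN8, and 177 and 458 RPM for LCN10. Scaled to whole library totals they were 374 and 3483 RPM for LCN5, 136 RPM (BMI) for LCN6, 159 and 281 RPM for LCN10 and 87.7 and 55.4 RPM for PTGDS.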

Other observations

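SAL1, the salivary lipocalin of boars, was at 609, 1.47 and 9.96 TPM in prostate gland BMI 1 to 3 and at 338, 60579.9 and 1777 TPM in DSE 1 to 3, so that DSE 2 exceeded the next library by far. In epididymis it was at 0 to 9.89 TPM. APOD, a lipocalin that binds arachidonic acid and progesterone, was at 80.0 to 964 TPM in epididymis with a median of 244 TPM, and RBP4, the retinol carrier of plasma, was at 0.287 to 4.35 TPM.

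The genes with a symbol that spread most between epididymis libraries, by the SD of log2(TPM + 1), were CST11 (6.27), SPAG11 (5.92), MAN2B2 (5.82), DEFB125 (5.28), DEFB129 (5.15) and PVALB (5.10), against 4.64 for LCN6. GPX5, an epididymal glutathione peroxidase, was at 13.7, 8449 and 4.42 TPM in BMI and 928, 194 and 9.24 TPM in DSE.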
